A study of Mus musculus with 2 samples.

Results

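The Ms4a genes encode small membrane proteins of the CD20 family, and 9 of them were examined here in sorted tumor cells, namely Ms4a1, Ms4a4a, Ms4a4b, Ms4a4c, Ms4a6b, Ms4a6c, Ms4a6d, Ms4a7 and Ms4a8a. Members were chosen by gene symbol, and rows with the same symbol were to be summed. Of the 9 symbols, 8 had a row among the 22886 genes of the files, each a single row, and the level of Ms4a4a was not analysed here. The series holds 2 libraries, both of wild type C57BL/6 mice that carried a subcutaneous tumor of LLC (Lewis lung carcinoma, a mouse lung cancer line), from which cells named aerobic were sorted by fluorescence. One library came from a vehicle injection and the other from an injection of clodronate, a drug that is widely given to deplete macrophages. With 1 library per condition there was no replicate error and no test between the conditions, and what the injection did and what set these particular mice, sorts or preparations apart cannot be told apart. A growth protocol in the labels names EML cells, a blood progenitor line, which conflicts with the other labels.

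MS4A proteins cross the membrane 4 times, with both ends in the cytoplasm, and several of them sit beside immune receptors and modulate their signals. The founding member, Ms4a1, encodes CD20, the B cell protein that therapeutic antibodies against lymphoma bind, and Ms4a2 encodes the beta chain of the high-affinity IgE receptor of mast cells. Many of the other mouse genes are active in monocytes, macrophages or T cells, and Ms4a4a, Ms4a7 and Ms4a8a are known from macrophages, among them those of tumors.

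The labelled cells were checked against defining genes first. All 16 macrophage markers had at least 17.5 RPKM in vehicle and at least 42.3 RPKM in clodronate. Lyz2 (lysozyme) had 10534 and 11189 RPKM and C1qc, a chain of complement C1q, had 3984 and 2043 RPKM. By contrast, 5 of 8 epithelial markers had a value of 0 in vehicle and clodronate alike. The highest, Cdh1, had 6.14 and 6.44 RPKM, while Krt8 had 3.67 and 1.33 RPKM and Krt18 had 2.97 and 3.19 RPKM. RPKM is a read number divided by transcript length and by the mapped reads of the library, so that levels can be compared between genes. The labels call these tumor cells, but their RNA was rich in macrophage transcripts in both libraries. In such a bulk sample, fewer cells of a type and less RNA per cell cannot be told apart.

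The members lie side by side on chromosome 19 and some are near copies of each other, which matters for how reads were assigned to them. The closest pair was Ms4a4b and Ms4a4c, whose coding sequences in GENCODE M21 (GRCm38) were each 681 nt long and identical at 91.8% of positions. Next came Ms4a6b with Ms4a6d (79.9% of alignment columns), Ms4a6b with Ms4a6c (73.9%) and Ms4a6c with Ms4a6d (67.0%). Ms4a4a shared 59.6% of columns with Ms4a4c, while Ms4a7, Ms4a1 and Ms4a8a stood at 51.3% or less with every other member. For the 3 closest pairs, the longest identical stretch of the coding sequences is shown, where short reads cannot tell the copies apart. Other shared stretches, also outside the coding sequences, are not shown.
Ms4a4b and Ms4a4c, coding positions 321 to 447 of both: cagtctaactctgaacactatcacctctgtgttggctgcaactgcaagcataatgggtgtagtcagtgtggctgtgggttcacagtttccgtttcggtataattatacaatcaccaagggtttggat
Ms4a6b and Ms4a6d, coding positions 100 to 180 of both: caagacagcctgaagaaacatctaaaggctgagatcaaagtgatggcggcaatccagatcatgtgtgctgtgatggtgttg
Ms4a6b and Ms4a6c, coding positions 389 to 443 of both: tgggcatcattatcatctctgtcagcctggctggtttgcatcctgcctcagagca
The first stretch, of 127 nt, lies in exons 5 and 6 of the 7 exons of each gene, on the plus strand of chr19 between 11459161 and 11461265 in Ms4a4b and between 11419001 and 11421266 in Ms4a4c (GRCm38). The second, of 81 nt, lies in exons 2 and 3, and the third, of 55 nt, within exon 5 of both genes.

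**Figure D1:**
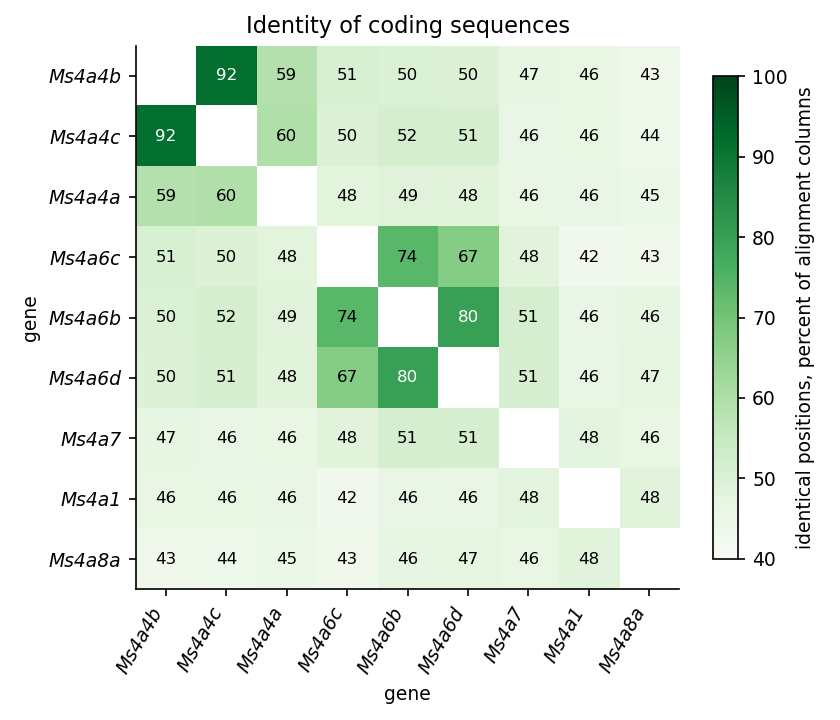
Identity between the coding sequences of the 9 members, as identical positions in percent of the columns of a global alignment (colour and number). The pair Ms4a4b and Ms4a4c (91.8%) and the 3 Ms4a6 genes (67.0% to 79.9%) stand out from the other pairs.

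Stretches shared with other genes covered a small part of each transcript. For reads of 50 nt, 8.48% of the positions of the Ms4a4c transcript also occurred in a transcript of another gene, mostly Ms4a4b, and the shares were 11.3% for Ms4a6c, 8.91% for Ms4a6b, 4.19% for Ms4a4b and 2.92% for Ms4a6d. With reads of 36 nt the share reached 19.8% for Ms4a6c, and with 75 nt it was at most 3.94%, for Ms4a4c. No position of Ms4a1, Ms4a4a, Ms4a7 or Ms4a8a was shared at any of these lengths. The read length is not given in the sources used here. Some of the sharing was with genes outside the family, since at 75 nt the Ms4a6c transcript shared the most positions, 1.98%, with Prdm11. Levels of Ms4a4b, Ms4a4c and the Ms4a6 genes are therefore uncertain by the reads that the counting could split between copies or with other genes.

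The likeness extends upstream of the genes. RefSeq promoter windows (GRCm38.p6) were found for 7 of the 9 members, all but Ms4a1 and Ms4a6d, and the 250 bases before the start are shown for both pairs of copies, 5′ to 3′ on the plus strand, on which these genes are transcribed. The best local alignment was identical at 71.8% of 252 columns for Ms4a4b and Ms4a4c and at 81.9% of 182 columns for Ms4a6b and Ms4a6c. Capitals mark GAGGAA, the core of sites for the myeloid and lymphoid factor PU.1, and GAAAGTGA, letters of the kind that interferon regulatory factors bind, searched on both strands.
Ms4a4b (chr19:11443308-11443557): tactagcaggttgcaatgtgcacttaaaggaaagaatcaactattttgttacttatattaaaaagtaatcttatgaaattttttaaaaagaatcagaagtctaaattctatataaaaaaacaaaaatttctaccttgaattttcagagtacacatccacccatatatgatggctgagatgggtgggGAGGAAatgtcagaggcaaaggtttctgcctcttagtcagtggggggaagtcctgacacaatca
Ms4a4c (chr19:11407411-11407660): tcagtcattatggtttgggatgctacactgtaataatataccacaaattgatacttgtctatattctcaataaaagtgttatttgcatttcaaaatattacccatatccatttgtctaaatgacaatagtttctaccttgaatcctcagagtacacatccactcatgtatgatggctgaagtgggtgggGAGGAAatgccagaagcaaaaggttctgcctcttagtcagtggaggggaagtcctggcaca
Ms4a6b (chr19:11518309-11518558): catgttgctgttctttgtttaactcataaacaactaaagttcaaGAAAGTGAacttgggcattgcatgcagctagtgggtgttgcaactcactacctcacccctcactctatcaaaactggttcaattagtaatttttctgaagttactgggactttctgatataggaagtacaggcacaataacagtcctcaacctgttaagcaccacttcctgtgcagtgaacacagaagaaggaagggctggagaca
Ms4a6c (chr19:11469118-11469367): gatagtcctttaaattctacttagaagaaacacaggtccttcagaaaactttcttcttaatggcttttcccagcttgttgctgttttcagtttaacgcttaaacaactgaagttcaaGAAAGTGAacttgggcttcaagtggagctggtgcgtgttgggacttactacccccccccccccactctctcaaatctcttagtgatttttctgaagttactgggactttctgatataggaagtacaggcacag
GAGGAA began 64 bases before the start of Ms4a4b and 61 bases before that of Ms4a4c, and 23.3% of the 32851 promoter windows of this length hold it. GAAAGTGA began 206 bases before the start of Ms4a6b and 133 bases before that of Ms4a6c, and was in 1.21% of all windows. Neither was in the windows of Ms4a4a, Ms4a7 or Ms4a8a, and these letters were chosen after the sequences had been seen. The longer interferon-stimulated response element was in 2.98% of all windows and in 0 of the 8 windows of members.

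The 4 highest members were well above the others in both libraries, Ms4a4c and Ms4a8a followed, and Ms4a1 was at or near 0 in both, while Ms4a4b was listed at 0 in vehicle only. In the plot of levels by library, Ms4a7, Ms4a6d, Ms4a6c and Ms4a6b hold the upper places in the same order in vehicle and clodronate.

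**Figure D2:**
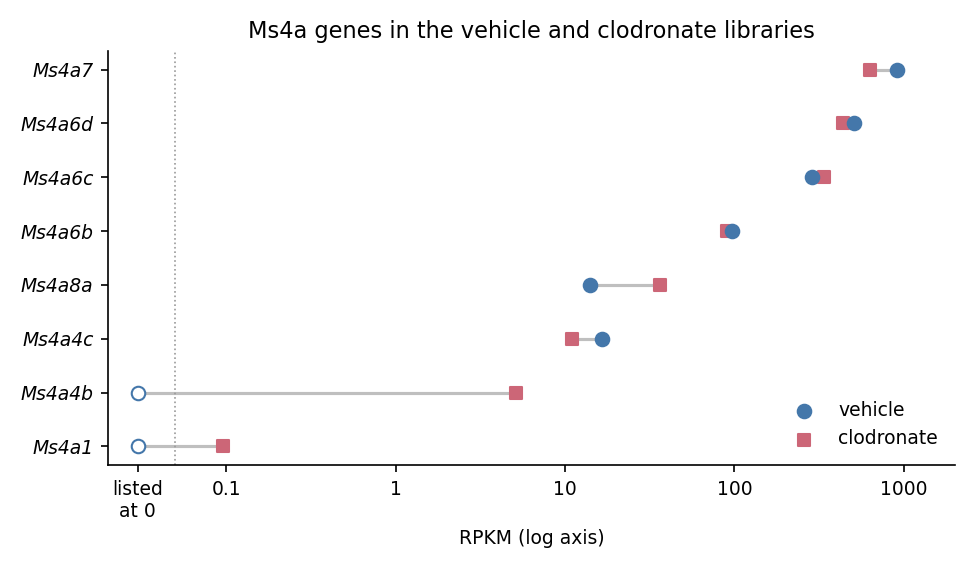
Level of the 8 members with a row, in RPKM on a log axis, in the vehicle library (circles) and the clodronate library (squares), 1 library each, so no error is drawn. Open circles left of the dotted line are listed at 0. Ms4a7 is highest with 909 and 630 RPKM, Ms4a8a is higher and Ms4a4c lower in clodronate, and Ms4a4b and Ms4a1 are listed at 0 in vehicle.

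Ms4a7, a gene of mature tissue macrophages, was the highest member in both libraries. It had 909 RPKM in vehicle and 630 RPKM in clodronate, which placed it 111th and 152nd among the 10982 genes kept, those whose mean of vehicle and clodronate reached 1 RPKM. The clodronate value was 0.694 times the vehicle value. Its log2 ratio, here always log2 of clodronate RPKM + 1 over vehicle RPKM + 1, was -0.53, and 18.4% of the genes kept had a ratio that low or lower. Of the 823 genes whose mean reached 100 RPKM, 15.7% had a ratio that low. The deposited locus covers 2 RefSeq transcripts, from 11395898 to 11410606 on chromosome 19 of mm9, the build of the files.

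Ms4a6d, the next in order and a gene of myeloid cells, had 509 RPKM in vehicle and 438 RPKM in clodronate, a ratio of 0.861. It lies from 11661096 to 11679294 (mm9). Ms4a6c had 289 RPKM in vehicle and 338 RPKM in clodronate, a ratio of 1.17, and was the only one of the 4 highest members with more in clodronate. Ms4a6b, which has been studied in T cells as well as in myeloid cells, had 96.1 and 90.9 RPKM, a ratio of 0.946. Together the 3 Ms4a6 genes summed to 893 RPKM in vehicle and 866 RPKM in clodronate, a difference smaller than that of Ms4a6c or Ms4a6d alone. Their log2 ratios, -0.22 for Ms4a6d, 0.22 for Ms4a6c and -0.08 for Ms4a6b, lay inside the interquartile range of all genes kept, from -0.38 to 0.40.

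The files give no counts, but low values fall on steps. RPKM multiplied by transcript length less 200 nt piled up at 0.0727 in vehicle and at 0.0891 in clodronate, which is the worth of 1 sequenced fragment if the lowest step is 1 fragment, and corresponds to about 13762739 and 11229127 fragments in all. On these steps 76.4% of the 458 vehicle loci and 76.9% of the 862 clodronate loci with up to 5 fragments lay within 0.1 of a whole number, against 20% for evenly spread values. Both the 200 nt and the steps were chosen for the tightest pile-up of low values of these loci, so part of these shares follows from that choice. Fragment numbers were estimated for members with a single transcript in the files, and intervals from them cover counting error only, since PCR copies were not marked. For Ms4a6d these were 8526 and 5990 fragments, with a 95% interval of the ratio from 0.833 to 0.890, and for Ms4a6b 1967 and 1519 fragments, with an interval from 0.885 to 1.01 that includes 1. The difference in Ms4a6b was not detectable at this depth.

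Ms4a8a, a gene described in tumor-associated macrophages of the alternatively activated kind, had the largest ratio among members detected in both libraries. It had 14.0 RPKM in vehicle and 36.4 RPKM in clodronate, about 169 and 360 fragments, a ratio of 2.61 with a 95% counting interval from 2.17 to 3.15. The log2 ratio was 1.32, and 4.14% of the genes kept had a ratio that high or higher. It lies from 11141961 to 11155593 (mm9), and shared no read positions with another gene. Of the macrophage markers fixed for this comparison, 9 were higher and 7 lower in clodronate, beside 51.6% and 48.4% of all genes kept. The sum of these markers was 28241 and 26557 RPKM, and none was at 0. Mrc1, a marker of alternative activation, had 174 and 289 RPKM, and Cd163, a scavenger receptor of such cells, had 17.5 and 42.4 RPKM, whereas Chil3 (Ym1), another such marker, had 36.4 and 14.8 RPKM, and of the macrophage markers Cd14 had 1560.1 and 1045 RPKM. These 4 genes were chosen after their values were seen, and they went in both directions. Their part in the level of Ms4a8a was not tested.

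Ms4a4c, a gene of monocytes and other myeloid cells, went the other way, with 16.6 RPKM in vehicle and 10.996 RPKM in clodronate. These values correspond to about 348 and 188 fragments and to a ratio of 0.662, with a counting interval from 0.552 to 0.793. The order of Ms4a4c and Ms4a8a thus differed between the libraries. In vehicle their counting intervals overlapped, 14.9 to 18.5 RPKM for Ms4a4c and 11.9 to 16.2 RPKM for Ms4a8a, and in clodronate they did not, 9.48 to 12.7 RPKM against 32.8 to 40.4 RPKM. All 11 monocyte markers passed the filter, 6 of them higher and 5 lower in clodronate, and their sum was 1845 RPKM in vehicle and 2714 RPKM in clodronate, of which Fn1 held 1530.5 and 2269 RPKM and F13a1, a coagulation factor subunit, 132 and 247 RPKM. Ccr2, the receptor that brings monocytes into tissue, had 48.5 and 37.8 RPKM, and Ly6c2, a surface protein of inflammatory monocytes, had 12.99 and 23.0 RPKM. The part of monocytes in the Ms4a4c level was not tested. Nor was the split of reads with its near copy Ms4a4b, which was listed at 0 in vehicle and had 5.14 RPKM in clodronate. The counting intervals do not cover that split.

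Ms4a4b, the near copy of Ms4a4c known from T cells, was listed at 0 in vehicle and had 5.14 RPKM in clodronate. At a transcript length of 4750 nt this is about 263 fragments, with a counting interval of the level from 4.54 to 5.80 RPKM. That length is from GENCODE and may differ from the one the authors used, which would change the fragment number and the interval. The interval also leaves out the split of reads with Ms4a4c, which was lower in clodronate. Ms4a4b was the only member at least 3-fold higher in clodronate on the log2 ratio (2.62, which depends on the pseudocount), beside 2.86% of all genes kept. No member was at least 3-fold lower, beside 2.32%. Ms4a4b, with a mean of 2.57 RPKM, passed the filter on low values only through its clodronate value, and the call follows from that same value. A 0 in these files is not read as absence, since a 0 can be an estimate that failed. Among loci with a transcript of at least 1000 nt, 7 were listed at 0 in vehicle with at least 5 RPKM in clodronate, Ms4a4b among them, and 4 the other way round. One of the 7 was Ndufaf1, an assembly factor of respiratory complex I that most cells use, with 0 and 12.8 RPKM.

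Most T cell markers were at or near 0 beside Ms4a4b. Of 16 T and NK cell markers, Cd3e, Cd3g, Cd247, Ncr1 and Gzma were listed at 0 in both libraries, Cd3d had 0.837 and 0.0789 RPKM and Lck had 0.310 RPKM in vehicle and was listed at 0 in clodronate. Nkg7 and Gzmb, genes of cytotoxic cells, and Cd8a were listed at 0 in vehicle and had 1.02, 0.586 and 0.0307 RPKM in clodronate. Cd8b1 had 0.598 RPKM in vehicle and was listed at 0 in clodronate. None of these genes passed the filter on low values. The list summed to 15.0 RPKM in vehicle and 22.3 RPKM in clodronate, mostly from Il7r (8.16 and 8.40 RPKM) and Cd2 (2.39 and 11.1 RPKM). Of the list, 3 genes passed the filter, 2 higher and 1 lower in clodronate, beside 51.6% and 48.4% of all genes kept. The lower one was Thy1, with 2.32 and 1.04 RPKM. Cd2, an adhesion receptor of T and NK cells, was the only gene of the list at least 3-fold higher in clodronate, beside 2.86% of all genes kept. The genes of the CD3 complex were thus at or near 0 in the library in which Ms4a4b was detected, while Cd2 and Il7r exceeded Ms4a4b there. The part of T and NK cells in the Ms4a4b level was not tested.

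Ms4a1 was at the edge of detection. It was listed at 0 in vehicle and had 0.0959 RPKM in clodronate, which at 3075 nt equals 3 fragments, and it was the only one of the 8 members that did not pass the filter on low values. No fold is given for it. Its locus in the files, from 11271307 to 11374374 (mm9), is an interval shared by 3 loci and not the span of the gene. Of the 12 B cell markers 4 passed the filter, of which 1 was higher and 3 lower in clodronate, beside 51.6% and 48.4% of all genes kept. Pax5, Cr2 and Vpreb3 were listed at 0 in both libraries and Cd79a had 1.098 and 1.11 RPKM. Cd79b had 1.896 and 0.536 RPKM, and Ebf1 was listed at 0 in clodronate only. Fcer2a and Blk were listed at 0 in vehicle and had 0.679 and 0.117 RPKM in clodronate, and Fcrla had 0.748 and 0.794 RPKM. Cd22, an inhibitory receptor of B cells, had 5.08 and 2.88 RPKM. Blnk, an adaptor that macrophages also use, held 77.8 of the 88.4 RPKM of the list in vehicle and 73.1 of the 79.2 RPKM in clodronate.

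**Figure D3:**
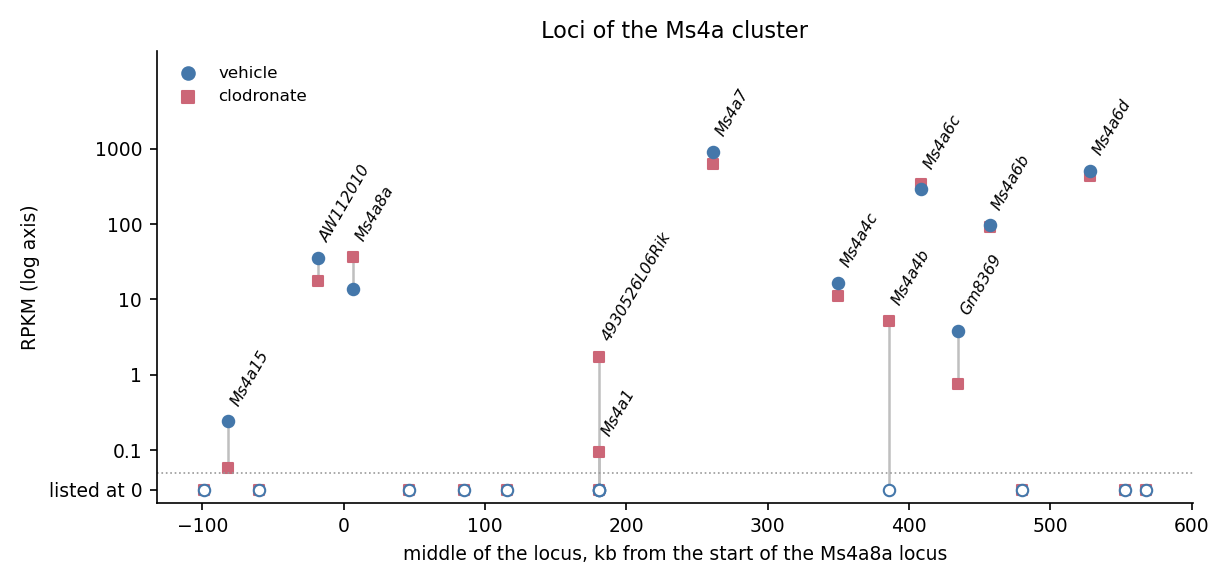
Level in RPKM (log axis) of the 21 loci between Ms4a10 and Ms4a3 in the vehicle library (circles) and the clodronate library (squares), against the distance of the middle of each locus from the start of the Ms4a8a locus in kb. Open symbols below the dotted line are listed at 0, and Ms4a1, Ms4a5 and 4930526L06Rik share 1 position because the files give them 1 interval. The highest levels lie in the stretch from Ms4a7 to Ms4a6d, where only Ms4a4d is listed at 0 in both libraries. Ms4a4b lies between Ms4a4c and Ms4a6c.

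Along the chromosome, the highest members, Ms4a7, Ms4a6c, Ms4a6b and Ms4a6d, lay in 1 stretch. Within it only Ms4a4d was listed at 0 in both libraries, and the other loci at 0 in both lay outside it. The files place 21 loci in the 679 kb from Ms4a10 to Ms4a3, of which 16 carry an Ms4a symbol. Of the 8 Ms4a loci that are not members, 7 were listed at 0 in both libraries, namely Ms4a2, Ms4a3, Ms4a4d, Ms4a5, Ms4a10, Ms4a13 and Ms4a18. The remaining one, Ms4a15, had 0.240 RPKM in vehicle and 0.0589 RPKM in clodronate, which equals 5 fragments and 1 fragment. Ms4a4d, listed at 0, lies between Ms4a6b at 96.1 and 90.9 RPKM and Ms4a6d at 509 and 438 RPKM. Ms4a12 and Ms4a14 were not analysed here. Tmem176a and Tmem176b, related 4-span proteins known from dendritic cells and macrophages, had 99.2 and 204 RPKM in vehicle and 80.4 and 126 RPKM in clodronate.

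Ms4a2 was listed at 0 in both libraries although other mast cell genes were detected. Of 8 mast cell markers, the mast cell protease genes Cpa3 (33.0 and 21.6 RPKM), Cma1 (30.5 and 17.9 RPKM), Mcpt4 (25.1 and 20.2 RPKM) and Tpsb2 (23.6 and 27.6 RPKM) were the highest. Kit, the stem cell factor receptor, had 1.36 and 0.717 RPKM. Fcer1a, the alpha chain that pairs with the product of Ms4a2, was listed at 0 in vehicle and had 0.108 RPKM in clodronate. The list summed to 116 and 92.3 RPKM.

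As a family the members took up a slightly smaller part of the clodronate library. Their RPKM summed to 1833 in vehicle and 1549 in clodronate, or 0.305% and 0.260% of all RPKM. Ms4a7 made up 49.6% of the sum in vehicle and 40.7% in clodronate, Ms4a6c 15.8% and 21.8%, and Ms4a8a 0.761% and 2.35%. The difference of the sums came mostly from Ms4a7, which was lower by 278 RPKM, while Ms4a6d was lower by 70.7 RPKM and Ms4a6c was higher by 48.9 RPKM. Of the 7 members that passed the filter on low values, 3 were higher and 4 lower in clodronate. Of all genes kept, 51.6% were higher and 48.4% lower. The median log2 ratio of the 7 members was -0.08, beside 0.019 over all genes kept. Without Ms4a4b, which passed the filter only through its clodronate value, the median was -0.15 over 6 genes. At a 2-fold limit, Ms4a4b and Ms4a8a were higher, beside 6.95% of all genes kept, and no member was lower, beside 6.77%.

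**Figure D4:**
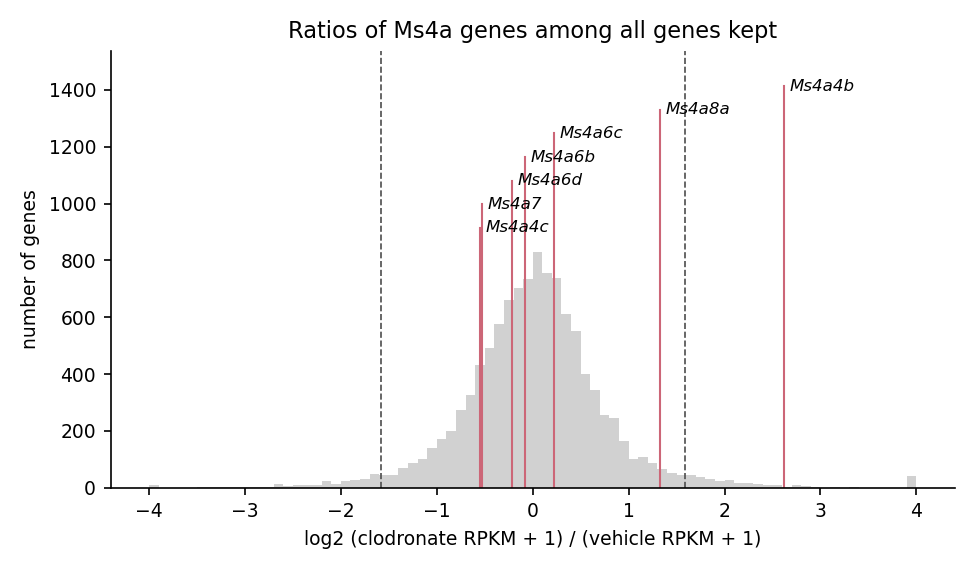
Number of genes by log2 ratio of clodronate over vehicle (RPKM + 1) for the 10982 genes kept, with ratios beyond 4 drawn at 4. Red lines mark the 7 members kept and dashed lines mark 3-fold, which only Ms4a4b passes, while Ms4a8a (1.32) stays inside and the other 5 members lie between -0.55 and 0.22.

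Ratios in these libraries moved with base composition and transcript length. From the lowest to the highest of 10 bins of GC content, the median log2 ratio of the genes in a bin went from -0.24 to 0.29, and the members' transcripts are poor in G and C, from 37.2% in Ms4a4b to 48.9% in Ms4a8a, where the median of all genes kept was 50.2%. Once these medians were subtracted, the median log2 ratio went from -0.26 in the shortest to 0.12 in the longest of 10 bins of transcript length. After the bin medians of GC content and then of transcript length were subtracted, the log2 ratio of Ms4a7 was -0.19 in place of -0.53 and that of Ms4a4c -0.20 in place of -0.55. Ms4a6b turned from -0.08 to 0.28 and Ms4a6d from -0.22 to 0.070, while Ms4a8a went from 1.32 to 1.61, past 3-fold. With the medians of GC content alone, Ms4a8a was at 1.34 and did not pass 3-fold, Ms4a7 was at -0.45, Ms4a6d at -0.059 kept its sign and Ms4a6b at 0.16 did not. Most of the shift of Ms4a8a and Ms4a7 thus came from the length bin, which for both was the shortest. The higher level of Ms4a8a was as large with the correction as without it. So was the ratio of Ms4a4b (2.62 and 2.79), which rests on a vehicle value of 0 and on the pseudocount. Those members that were lower in clodronate were less so or turned. For Ms4a7 and Ms4a6c, which have 2 transcripts each, the first in the files was used, which for Ms4a7 is only 882 nt long.

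**Figure D5:**
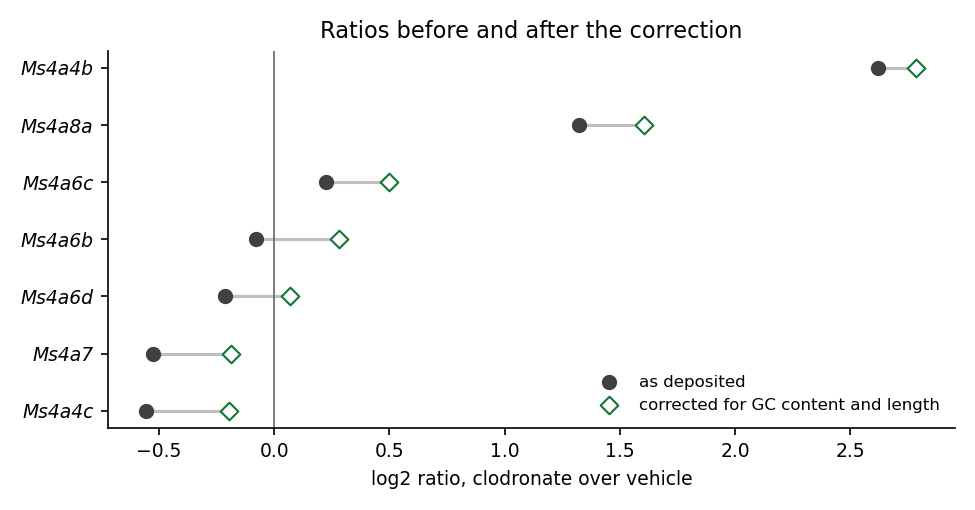
Log2 ratio of clodronate over vehicle for the 7 members kept, as deposited (filled circles) and after subtraction of the medians of 10 bins of GC content and 10 bins of transcript length (open diamonds). All 7 shift to the right, and Ms4a6b (-0.08 to 0.28) and Ms4a6d (-0.22 to 0.070) cross 0.

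Genes of receptors that signal near MS4A proteins, and of their signalling partners, were detected in both libraries at widely different levels. They ranged from 22.5 to 2690 RPKM in vehicle and from 23.8 to 2397 RPKM in clodronate. Of 11 such genes, of which Fcer1g, Tyrobp and Fcgr1 are macrophage markers as well, 5 were higher and 6 lower in clodronate, none by 3-fold, with a median log2 ratio of -0.13. Fcer1g, the common chain of activating Fc receptors, had 2690 and 2397 RPKM, Tyrobp, a similar adaptor, had 2174 and 1644 RPKM, and the inhibitory receptor Fcgr2b had 738 and 739 RPKM. Clec7a, which encodes the fungal receptor Dectin-1 that associates with MS4A4A, had 174 and 92.2 RPKM. Apart from the myeloid genes, 11 of 12 interferon response genes were higher in clodronate, beside 51.6% of all genes kept. Of the 12, 4 were at least 3-fold higher, beside 2.86% of all genes kept. The list summed to 156 and 407 RPKM. Bst2, an antiviral membrane protein, had 45.4 and 111 RPKM, and Irf7, a transcription factor of the response, had 20.1 and 107 RPKM. Of 10 fibroblast markers 8 passed the filter, of which 1 was higher and 7 lower, beside 51.6% and 48.4% of all genes kept. The list summed to 160 and 76.9 RPKM, with Dcn at 77.3 and 28.4 RPKM and Col3a1 at 62.1 and 34.4 RPKM. Whether either list had a part in the levels of the members was not tested.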

How the data were processed

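The authors deposited 1 table of RPKM values per library, for 23170 loci with RefSeq accessions, symbols and Cufflinks identifiers. The submitters' processing notes name the build mm9 and CASAVA 1.8.2, TopHat2 2.0.9, Bowtie 0.12.9, Cufflinks 2.2.1 and Cuffdiff, with no role or order. Start positions were raised by 1 to count from 1. Symbols that had become numbers (26) were replaced by accessions, rows of 1 symbol were summed, and genes whose mean over the libraries reached 1 RPKM were kept (10982). Ratios are log2 of RPKM + 1, and a gene counts as called at 3-fold. No count model and no p-value was used, since each condition has 1 library. Adgre1 was found under an older symbol. The members and the 11 lists were chosen with earlier results of these data known. All members were named and, of a list of more than 6 genes, the 2 to 4 highest, with others named as examples after their values were seen. Ratio intervals are exact binomial (Clopper-Pearson) and level intervals exact Poisson, both at 95%, from estimated fragments. Coding sequences, lengths and GC content came from GENCODE M21 (GRCm38), from the first accession of a locus in the correction. A comparison of proteins was planned and replaced by one of coding sequences. Alternatives were another pseudocount, no filter, a stricter filter, centring, upper-quartile scaling, the highest row per symbol, 2-fold and, chosen after seeing the data, the correction for GC content, alone or with length. One marker gene is not reported here. Python 3.11.15, numpy 2.4.6, pandas 2.3.3, scipy 1.17.1, Biopython 1.88 and matplotlib 3.10.9 were used.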

Additional observations from a re-analysis of the deposited data

How the results depend on the processing

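No paired analysis was possible because neither condition holds more than 1 library, and no library could be left out. Genes at least 3-fold higher numbered 314 and lower 255. With a pseudocount of 0.1 these were 532 and 480, with a minimum mean of 5 RPKM 127 and 101, and at 2-fold 763 and 744, limits that by themselves change the number that can pass, while the other settings gave 282 to 315 and 204 to 274. The median log2 ratio of the members was -0.08 over 7 genes, -0.15 over 6 with the minimum of 5 RPKM, -0.10 after centring and -0.14 at the same upper quartile. It changed sign to 0.026 over 8 genes with no filter, which adds Ms4a1, and to 0.28 once GC content and length were corrected for, under which Ms4a6b (0.28) and Ms4a6d (0.070) changed sign as well. With GC content alone corrected for, the median and Ms4a6b both became 0.16. The other 53 of 56 ratios of single members kept their direction. Many of them could not do otherwise, since the filters, the row choice and the pseudocount cannot turn the ratio of a single gene. Ms4a8a ranged from 1.26 to 1.61, Ms4a7 from -0.59 to -0.19, Ms4a4c from -0.61 to -0.20 and Ms4a4b from 2.59 to 5.71, the last with a pseudocount of 0.1. Scaling to the same upper quartile made the summed levels of the members 1873 RPKM in vehicle and 1517 RPKM in clodronate. The estimated depth leaves Ms4a1 and Ms4a15 at 5 fragments or fewer.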

Other observations

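Other loci inside the Ms4a cluster, chosen after their values were seen, also differed between the libraries. Gm8369, which lies between Ms4a6c and Ms4a6b, had 3.84 RPKM in vehicle and 0.759 RPKM in clodronate. AW112010, the locus next to Ms4a8a, had 35.4 and 17.7 RPKM, with a log2 ratio of -0.96 where Ms4a8a had 1.32. The locus 4930526L06Rik, which shares its interval with Ms4a1 and Ms4a5, was listed at 0 in vehicle and had 1.74 RPKM in clodronate.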
